A study of Rattus norvegicus with 19 samples.

Results

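Alcohol dehydrogenases, aldehyde dehydrogenases and aldo-keto reductases handle alcohols and aldehydes in the liver, and 10 of their genes were followed here in adult rat liver after pregnenolone-16α-carbonitrile (PCN). The alcohol dehydrogenases were Adh1c (also called Adh1), Adh4 and Adh7, the aldehyde dehydrogenases Aldh2, Aldh3a2 and Aldh9a1, and the aldo-keto reductases Akr1a1, Akr1b7, Akr7a2 and Akr7a3. Genes were chosen by name, and every probe set annotated to exactly 1 of them was used. This gave 10 of the 15923 probe sets of the first array type and 1, a second Adh1c probe set, of the 15333 of the second, for 10 of the 13813 genes with a probe set of their own. Adh1 was matched through its RefSeq synonym, since its current symbol is Adh1c.

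PCN, a man-made steroid, switches on the pregnane X receptor of rodents, and rats received 1 intraperitoneal dose of 100 mg/kg, against the corn oil vehicle, after an overnight fast. Livers were taken 8 h later in both groups, and the study asked whether PCN activates genes outside drug metabolism. The first Affymetrix array type had 5 PCN and 5 corn oil arrays, and the second had 5 PCN and 4 corn oil arrays, since corn oil replicate 2 has no array of that type among those analysed here. The labels call the arrays biological replicates of adult liver, and strain, sex and exact age are not given in the sources used here. Within a group, arrays of the first and second type with the same number are labelled as the same biological replicate. Readings on both array types are therefore not counted as independent animals. Values are log2 expression per probe set, so a difference of 1 is a doubling, and the number of arrays limits the precision.

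Alcohol dehydrogenases oxidize alcohols to aldehydes or ketones in the cytosol with NAD+ as electron acceptor. Aldehyde dehydrogenases carry the aldehydes on to acids, and aldo-keto reductases work in the reducing direction with NADPH, turning reactive aldehydes and ketones back into alcohols. In liver these families handle ethanol, retinoids, steroids, products of lipid peroxidation and dietary toxins such as aflatoxin.

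None of the 10 genes passed the test for a change after PCN. At an adjusted p below 0.05 limma called 0 of the 9 first-type probe sets tested and 0 of 1 of the second type. Over all probe sets tested, the share called was 3.25% (361 of 11106) for the first array type and 5.4% (577 of 10693) for the second. Among the brightest 10% of probe sets, which hold 7 of the first-type probe sets of these genes and the second-type one, it was 6.03% for the first type and 15.2% for the second. The 4 smallest unadjusted p-values belonged to Akr1a1 and Akr7a3, with higher means after PCN, and to Adh1c and Aldh2, with lower means. Thus 4 of the 9 tested probe sets (44.4%) had an unadjusted p below 0.05 in limma, against 17.7% of all tested probe sets (1964 of 11106). That share is not matched for brightness, since 7 of the 9 are among the brightest 10%, for which it was not computed. No family had a single direction, with positive log2 fold changes for 1 of 2 alcohol dehydrogenases, 2 of 3 aldehyde dehydrogenases and 2 of 4 aldo-keto reductases. The median log2 fold change of the 9 was 0.0031, beside 5.5e-05 for all tested probe sets. Adh7, below the filter on dim probe sets, was not tested.

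**Figure D1:**
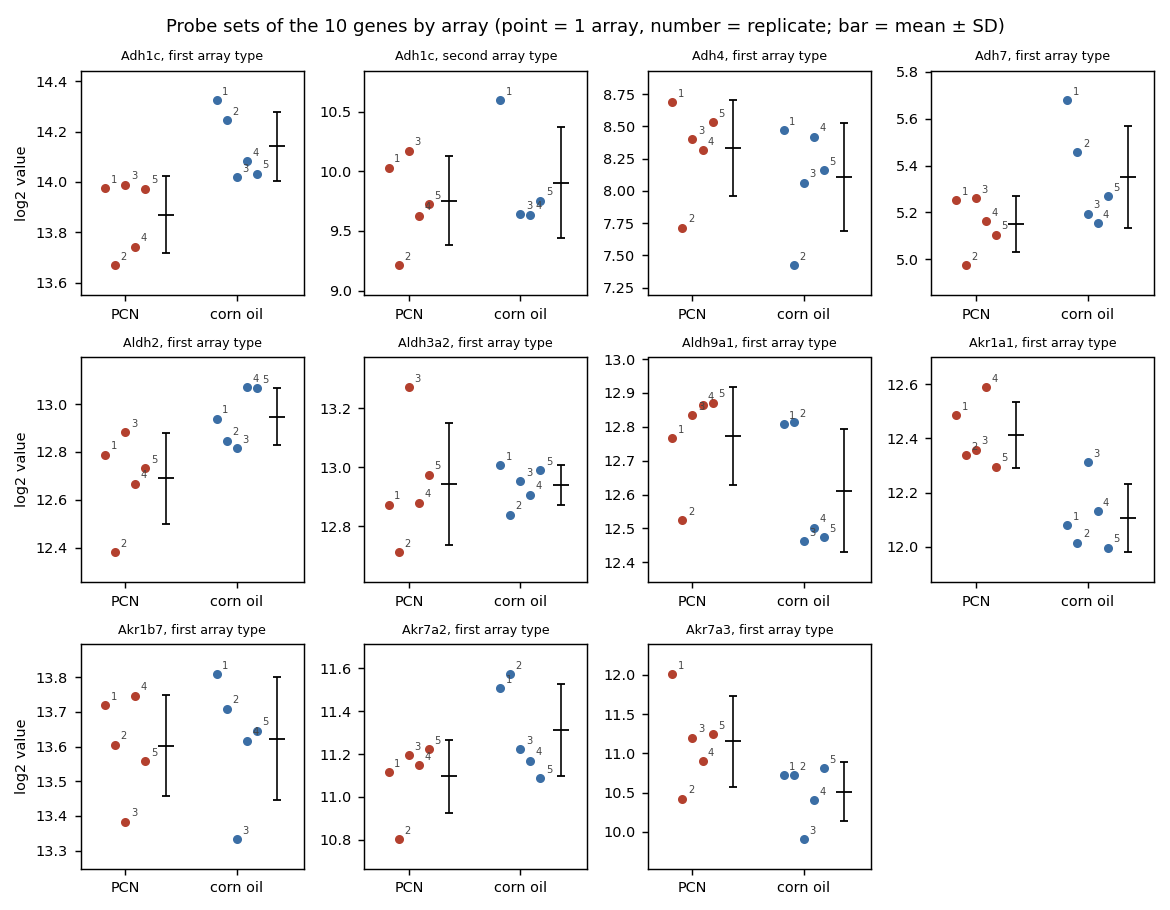
The log2 value (vertical axis) of each probe set of the 10 genes in each PCN array (left of each panel) and corn oil array (right), with numbers giving the replicate and bars the mean ± SD. The groups are fully apart only for Adh1c on the first array type, where PCN arrays end at 13.99 and corn oil arrays start at 14.02.

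The treatment itself was visible on the first array type, since all 5 of its probe sets of the pregnane X receptor targets Cyp3a23-3a1, Cyp3a18, Por and Alas1 were called higher, with log2 fold changes of 0.65 to 1.74. One of the 2 Por calls (log2 fold change 1.62, limma adjusted p = 0.0438) was lost in 14 of 21 alternatives. Hepatocyte markers, 7 of 8 measured on the first array type, had mean levels of 13.69 to 13.88 in PCN arrays and 13.30 to 13.85 in corn oil arrays. No gene of this list or of 7 lists for other liver and blood cells was called there, and no list's mean separated the groups. The lists for cholangiocytes, lymphocytes and neutrophils had only 1 tested gene each there. In bulk liver, fewer cells of a type and less RNA per cell cannot be told apart. On the first array type, corn oil replicate 2 stood apart, with a mean correlation of 0.957 with its group, against 0.974 to 0.983 for the other arrays. On the second, bright probe sets were shifted, with a median log2 fold change of 0.20 in the brightest 10% and -0.06 in the dimmest 10%. On the first array type the brightest 10% had a median of -0.01.

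Akr1a1 had the smallest p of the 10 genes. It encodes an aldehyde reductase that also reduces glucuronate on the way to vitamin C in rodents. Its log2 values were 12.49, 12.34, 12.36, 12.59 and 12.30 in PCN replicates 1 to 5, against 12.08, 12.02, 12.31, 12.13 and 12.00 in corn oil replicates 1 to 5. Only corn oil replicate 3 reached into the PCN range, so that 4 of 5 PCN arrays lay above every corn oil array. The means were 12.41 ± 0.12 in PCN and 12.11 ± 0.13 in corn oil (SD, n = 5 each). The 1.24-fold difference (log2 fold change 0.31 ± 0.08 SE, 95% interval 0.12 to 0.49) missed the threshold in limma (adjusted p = 0.0735).

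Adh1c, a class I alcohol dehydrogenase and the main oxidizer of ethanol in liver, had a lower mean after PCN on the first array type. Its values were 13.98, 13.67, 13.99, 13.74 and 13.97 in PCN replicates 1 to 5, against 14.32, 14.24, 14.02, 14.08 and 14.03 in corn oil replicates 1 to 5. Every PCN array was below every corn oil array. Such non-overlap was found for 1 of the 9 tested probe sets, and for 6.04% of all tested ones (671 of 11106), 3.99% with PCN higher and 2.05% with PCN lower. Among the brightest 10% the share was 11.3%. Its log2 fold change was -0.27 ± 0.08 (SE, 95% interval -0.45 to -0.09), a level 1.21-fold lower after PCN, with an adjusted p of 0.106 in limma. Scaling to a trimmed mean gave an adjusted p of 0.0361, and centring on probe sets common to both array types also gave 0.0361, but the other 19 alternatives for this probe set gave no call. These scalings moved all probe sets, by a median of -0.04 and -0.08, and relative to that median the difference stayed at -0.27.

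The second Adh1c probe set did not repeat the separation. It read 10.03, 9.21, 10.17, 9.63 and 9.72 in PCN replicates 1 to 5, against 10.59, 9.64, 9.64 and 9.75 in corn oil replicates 1, 3, 4 and 5. Corn oil replicate 1 stood well above the other 3, and PCN replicate 2 below every other array. Groups were apart for 10.4% of all tested probe sets of this array type (5.06% with PCN higher and 5.32% with PCN lower), and for 21.2% of the brightest 10%. For Adh1c they overlapped, with a log2 fold change of -0.15 ± 0.23 (SE, 95% interval -0.64 to 0.34, limma adjusted p = 0.679). Without corn oil replicate 1 it turned to 0.08, and without PCN replicate 2 it was -0.02. After quantile normalization and cyclic loess, it was -0.42 and -0.36, neither called. Relative to the median of all tested probe sets these were -0.39 and -0.36, against -0.12 for the values as deposited. The brightest 10% of this array type, which hold this probe set, had a median log2 fold change of 0.20 as deposited.

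Akr7a3 showed the largest difference in means of the 10 genes and also the widest spread after PCN. In the rat it encodes the aflatoxin aldehyde reductase, which detoxifies the dialdehyde of aflatoxin and is known to be induced by dietary antioxidants. PCN replicates 1 to 5 read 12.01, 10.42, 11.20, 10.90 and 11.25, against 10.72, 10.72, 9.91, 10.40 and 10.81 in corn oil replicates 1 to 5. Thus 4 of 5 PCN arrays were above every corn oil array, while PCN replicate 2 lay within the corn oil range. The means of 11.15 ± 0.58 in PCN and 10.51 ± 0.37 in corn oil (SD, n = 5 each) differed 1.56-fold, a log2 fold change of 0.64 ± 0.26 (SE, 95% interval 0.08 to 1.21, limma adjusted p = 0.221). It depended on single PCN arrays, at 0.43 (limma adjusted p = 0.397) without replicate 1, the highest, and 0.83 (limma adjusted p = 0.0788) without replicate 2, the lowest. Array weights, which lower the influence of divergent arrays, gave 0.94 and an adjusted p of 0.0373 for Akr7a3, and 0.29 and 0.0421 for Akr1a1.

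Aldh2, the mitochondrial enzyme that clears acetaldehyde, read 12.79, 12.38, 12.88, 12.67 and 12.73 in PCN replicates 1 to 5, against 12.94, 12.85, 12.82, 13.07 and 13.07 in corn oil replicates 1 to 5. All 5 PCN arrays were below the corn oil mean, and 4 were below every corn oil array, with PCN replicate 3 overlapping. This gave a log2 fold change of -0.26 ± 0.10 (SE, 95% interval -0.47 to -0.05), with an adjusted p of 0.18 in limma. Adh1c and Aldh2, which catalyse consecutive steps of ethanol breakdown, therefore both had lower means, and neither passed the test.

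The promoters of Adh1c and Akr7a3 are shown because these genes carry differences described above, and their choice followed the values. RefSeq's promoter table for GRCr8 held 9 of the 10 genes, without Aldh2. In 6 of the 9 the window sits at the start of the annotated gene, while those of Akr1a1, Aldh3a2 and Akr1b7 lie 20806, 114 and 69 bases inside it, and the Akr1a1 window is not shown for that reason. Each sequence runs 5′ to 3′ from 250 bases before to 50 bases after the annotated gene start, and capitals mark AGTTCA or AGGTCA, hexamers that nuclear receptors are known to bind, on either strand. Adh1c is at chr2:229470453-229470752 on the plus strand and Akr7a3 at chr5:156876471-156876770 on the plus strand.
Adh1c: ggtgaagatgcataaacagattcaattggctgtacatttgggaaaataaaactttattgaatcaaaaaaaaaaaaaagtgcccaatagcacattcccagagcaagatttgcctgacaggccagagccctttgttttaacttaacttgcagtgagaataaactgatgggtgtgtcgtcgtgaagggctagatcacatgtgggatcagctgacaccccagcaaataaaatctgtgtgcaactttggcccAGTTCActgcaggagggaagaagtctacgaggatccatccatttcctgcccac
Akr7a3: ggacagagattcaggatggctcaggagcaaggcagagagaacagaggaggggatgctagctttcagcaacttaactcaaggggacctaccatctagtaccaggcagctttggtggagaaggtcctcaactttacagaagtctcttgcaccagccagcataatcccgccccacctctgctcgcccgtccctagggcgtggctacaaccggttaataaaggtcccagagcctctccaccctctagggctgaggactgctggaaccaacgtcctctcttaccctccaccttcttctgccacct
Adh1c held 1 such hexamer, starting 3 bases before the gene start, and Akr7a3 held none in this window. Such a hexamer was in 6 of 9 windows of the table, and in 4 of the 6 that sit at the gene start, against 27.4% of 27457 promoters of the same length. A pair of these hexamers in direct repeat, spaced by 3 or 4 bases, was in 0 of 9 windows, against 0.0401% and 0.0182% of all. The letters TGACNNNGC, the core of the antioxidant response element, were on either strand in 1 of 9 windows, that of Aldh9a1, against 12.2% of all, and there they overlap a hexamer.

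**Figure D2:**
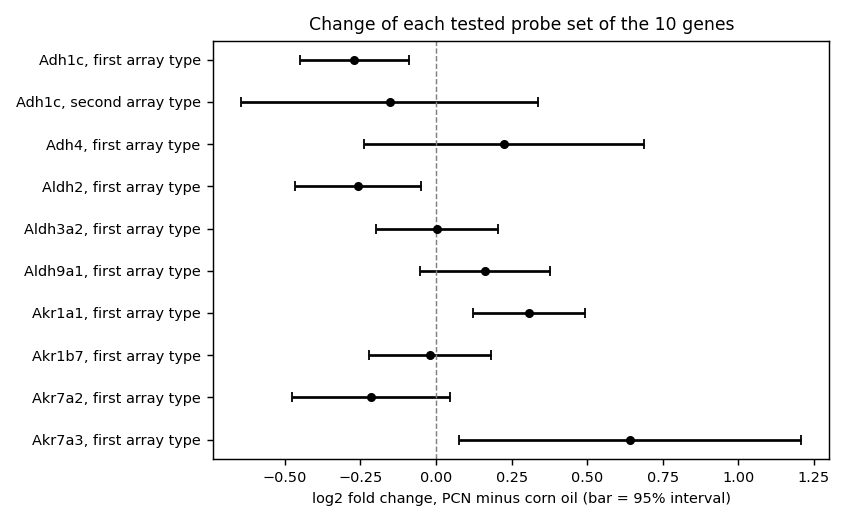
The log2 fold change of PCN over corn oil (horizontal axis) for each tested probe set of the 10 genes, with its 95% interval from limma as bars. Intervals of Akr1a1 (0.12 to 0.49) and Akr7a3 (0.08 to 1.21) lie above 0 and those of Adh1c on the first array type and Aldh2 below it, before adjustment over all probe sets.

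The remaining alcohol dehydrogenases had wider or lower readings. Adh4, a class II enzyme that also oxidizes retinol, ranged from 7.72 to 8.69 in PCN arrays and from 7.42 to 8.47 in corn oil arrays. The lowest of each group was replicate 2, and the log2 fold change was 0.22 ± 0.21 (SE, adjusted p = 0.63, limma). It ranged from 0.05 without corn oil replicate 2 to 0.38 without PCN replicate 2, and its 95% interval of -0.24 to 0.69 leaves room for a change of up to 1.61-fold higher. Adh7, the class IV enzyme known chiefly from stomach, was the one probe set under the filter. Its means were 5.15 ± 0.12 in PCN and 5.35 ± 0.22 in corn oil (SD, n = 5 each), both below the filter value of 6.67. With no filter its log2 fold change of -0.20 had an adjusted p of 0.361 in limma. Adh7, Adh1c, Adh6a, Adh6, Adh4 and Adh5 lie in this order on chromosome 2 of GRCr8 with 0 other protein-coding genes between them. Adh5 and Adh6a, not among the 10, gave differences of -0.21 on the first array type (limma adjusted p = 0.281) and of -0.16 on the other (limma adjusted p = 0.147), on the log2 scale.

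Among the other aldehyde dehydrogenases, Aldh3a2, the fatty aldehyde dehydrogenase of the endoplasmic reticulum, had nearly equal means of 12.94 ± 0.21 in PCN and 12.94 ± 0.07 in corn oil (SD, n = 5 each). The 95% interval of its log2 fold change, -0.20 to 0.20, corresponds to 0.871-fold to 1.15-fold. PCN replicate 3 was its highest value at 13.27, and the other PCN arrays lay between 12.71 and 12.97. Aldh9a1, which makes a precursor of carnitine, read 12.77, 12.52, 12.84, 12.86 and 12.87 in PCN replicates 1 to 5, against 12.81, 12.81, 12.46, 12.50 and 12.47 in corn oil replicates 1 to 5. Corn oil replicates 1 and 2 were near the PCN arrays and the other 3 lower, while PCN replicate 2 was near the low corn oil arrays. Its log2 fold change was 0.16 ± 0.10 (SE, adjusted p = 0.439, limma).

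Of the other aldo-keto reductases, Akr1b7, an aldose reductase-like protein whose mouse counterpart is a known target of the pregnane X receptor, gave close means of 13.60 ± 0.15 in PCN and 13.62 ± 0.18 in corn oil (SD, n = 5 each). Its log2 fold change was -0.02 ± 0.09 (SE, adjusted p = 0.929, limma), with a 95% interval of -0.22 to 0.18, or 0.857-fold to 1.13-fold. Replicate 3 was lowest in each group, at 13.38 in PCN and 13.33 in corn oil. Akr7a2, which reduces succinic semialdehyde and aflatoxin dialdehyde, read 11.11, 10.80, 11.19, 11.15 and 11.22 in PCN replicates 1 to 5. Corn oil replicates 1 to 5 gave 11.51, 11.57, 11.22, 11.17 and 11.09, so that the groups overlapped, and the log2 fold change was -0.22 ± 0.12 (SE, adjusted p = 0.385, limma). Akr7a2 and Akr7a3 are adjacent protein-coding genes on chromosome 5 of GRCr8, with log2 fold changes of opposite sign, and the difference between them was not tested.

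A single PCN array lay low for most of these genes. PCN replicate 2 had the lowest PCN value for 8 of the 10 probe sets of the first array type, all but Akr1a1 and Akr1b7, and also for Adh1c on the second. Over all tested probe sets it was lowest among PCN arrays for 36.4%, and over the brightest 10% for 47.2%. Its median deviation from the PCN mean was -0.24 over these 10 probe sets and -0.05 over all tested ones. Its part in the results was not tested beyond leaving it out, which kept 0 calls among the 10 genes. The log2 fold changes were then -0.22 for Adh1c, -0.18 for Aldh2 and 0.33 for Akr1a1 (adjusted p = 0.142, 0.208 and 0.0721, limma).

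**Figure D3:**
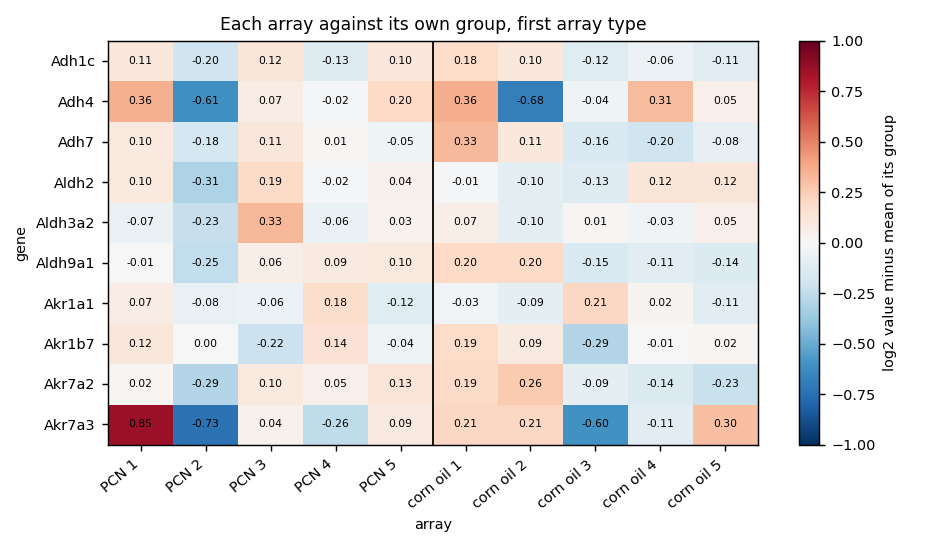
Each cell gives the log2 value of a gene (rows) in an array of the first type (columns, PCN left of the line and corn oil right) minus the mean of its own group. The column of PCN replicate 2 is negative for Adh1c, Adh4, Adh7, all 3 aldehyde dehydrogenases, Akr1a1, Akr7a2 and Akr7a3, and near 0 for Akr1b7.

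The wider pathway was read from 6 lists, chosen with earlier results of these data known. On the first array type 1 of 36 tested probe sets was called higher and 1 lower, against 2.31% and 0.945% of all tested probe sets, and the median log2 fold change was -0.06. On the second 1 of 16 was called higher and 0 lower, against 3.76% and 1.64% of all, with a median of 0.02, beside -0.03 for all tested probe sets. At an unadjusted p below 0.05 the share over all probe sets of the second array type was 27.3%. All 3 calls were aldo-keto reductases, with 2 among 9 tested probe sets of that list on the first array type and 1 among 6 on the other. That list also includes potassium channel subunits of this family, which were tested on the first array type only. The other aldehyde dehydrogenases had 0 calls by limma among 10 and 6 tested probe sets, and those nearest the threshold were Aldh1l2 (log2 fold change 0.41, adjusted p = 0.0508) and Aldh1a3 (0.42, adjusted p = 0.0871), both on the second array type. Aldh1l2, unlike Aldh1a3, is among the brightest 10% there, whose median log2 fold change was 0.20. Cyp2e1 and catalase (Cat), which oxidize ethanol by other routes, had log2 fold changes of -0.05 ± 0.05 and 0.01 ± 0.07 (SE). Acss3, of the acetate list, had one of -0.35 ± 0.10 (SE, adjusted p = 0.0877, limma).

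**Figure D4:**
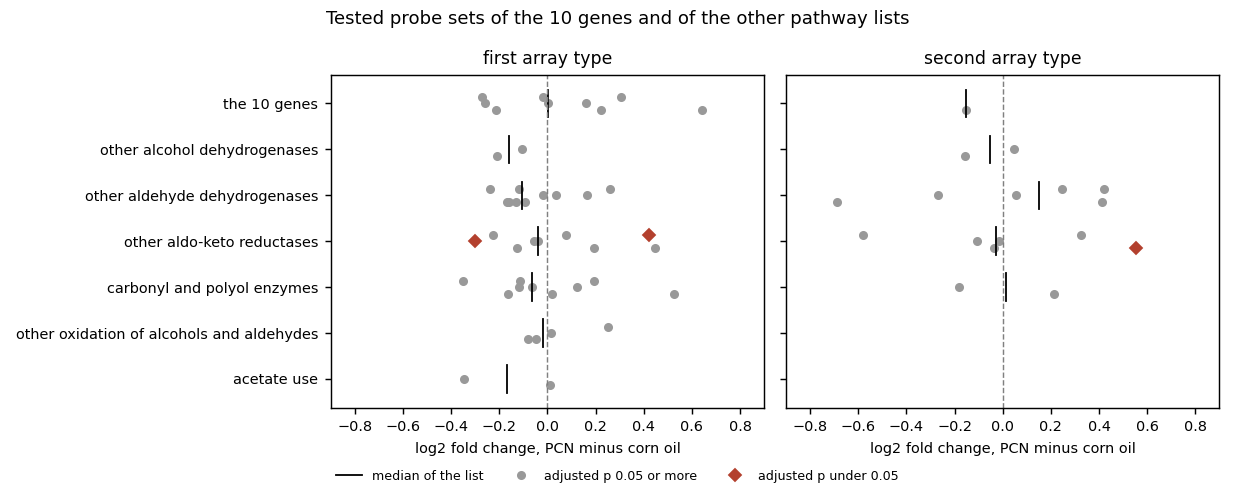
The log2 fold change of PCN over corn oil (horizontal axis) of every tested probe set of the 10 genes and of the 6 other lists (rows), on the first (left) and second (right) array type, with black bars for list medians. Diamonds mark the 3 probe sets with an adjusted p below 0.05, all in the row of other aldo-keto reductases, while the 10 genes have none.

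Akr1c14, the rat 3α-hydroxysteroid dehydrogenase, which reduces steroid ketones, rose after PCN. Its called probe set read 12.93, 12.78, 13.10, 13.03 and 12.95 in PCN replicates 1 to 5, against 12.70, 12.28, 12.40, 12.69 and 12.61 in corn oil replicates 1 to 5. The groups did not overlap, and the log2 fold change was 0.42 ± 0.09 (SE, adjusted p = 0.0325, limma). Another probe set of the first array type and one of the second were also fully separated, with log2 fold changes of 0.45 and 0.33 that were not called (limma, adjusted p of 0.292 and 0.0666). On that first-type probe set corn oil replicate 2 read 11.74 and the other corn oil arrays 12.84 to 13.07. Each of these Akr1c14 probe sets is among the brightest 10% of its array type. Within that brightest 10%, groups were apart for 11.3% of first-type and 21.2% of second-type probe sets. The second-type ones had a median log2 fold change of 0.20, so the 0.33 there is not matched for brightness. Akr1c genes are close relatives, and whether the Akr1c14 probe sets share signal between such genes was not tested.

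Akr1d1, the 5β-reductase that acts on steroids and bile acid precursors, fell after PCN on the first array type. It read 11.95, 11.78, 11.97, 11.76 and 11.94 in PCN replicates 1 to 5, against 12.21, 12.10, 12.23, 12.21 and 12.18 in corn oil replicates 1 to 5. Its log2 fold change was -0.30 ± 0.07 (SE, adjusted p = 0.0426, limma), and -0.58 ± 0.19 on the second array type, where it was not called (adjusted p = 0.0815). The first-type Akr1d1 probe set is among the brightest 10% of its array type, of which 6.03% were called and 11.3% had groups apart. Akr1c15 rose on the second array type, with 9.28, 9.06, 9.14, 9.06 and 8.64 in PCN replicates 1 to 5, against 8.38, 8.47, 8.45 and 8.63 in corn oil replicates 1, 3, 4 and 5. PCN replicate 5 was only just above the highest corn oil array, and the log2 fold change was 0.55 ± 0.12 (SE, adjusted p = 0.0279, limma). Over alternatives that kept all arrays, it went down to 0.27, after centring on the common probe sets. That centring shifted all probe sets of an array alike, and moved the median of all tested ones from -0.03 to -0.31. The Akr1c15 probe set is among the brightest 10% of that array type. There the median log2 fold change was 0.20, 15.2% of probe sets were called and 21.2% had groups apart. These calls were not stable, being lost in 8 of 21 alternatives for Akr1c14, 11 of 21 for Akr1d1 and 8 of 20 for Akr1c15. The highest adjusted p in limma over these alternatives was 0.100 for Akr1c14 (centred on common probe sets), 0.107 for Akr1d1 (without corn oil replicate 4) and 0.0952 for Akr1c15 (with replicate block). Among fits without 1 array, it was 0.0843 for Akr1c14 (without PCN replicate 4) and 0.0854 for Akr1c15 (without corn oil replicate 4).

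**Figure D5:**
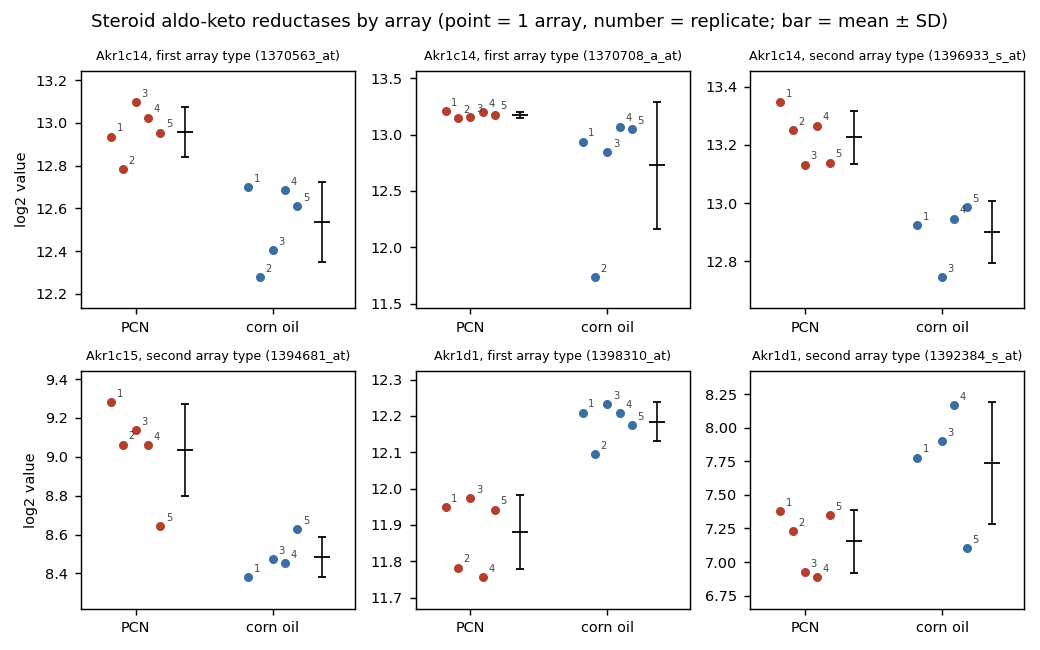
The log2 value (vertical axis) of every tested probe set of Akr1c14, Akr1c15 and Akr1d1 in each PCN array (left of each panel) and corn oil array (right), with numbers giving the replicate and bars the mean ± SD. The groups are apart in every panel except Akr1d1 on the second array type, where corn oil replicate 5 lies at 7.10.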

How the data were processed

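Total RNA of rat liver was hybridized as biotinylated cRNA to Affymetrix arrays, per the labels' protocols. The authors deposited 1 log2 value per probe set and array. That the base is 2 was inferred, because values reach 15.2, above the natural log (11.09) of the largest 16-bit reading but under its log2. MAS5 is named in the submitters' processing notes without a version, and how the values were summarized and normalized is not given in the sources used here.

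Probe sets were assigned through the platform annotation by gene identifier, with symbols from RefSeq (GRCr8). Controls (57 per array type) were dropped, and so were probe sets whose mean fell under the 30th percentile, at 6.67 and 5.51. All remaining probe sets were fitted, each array type alone, with limma 3.58.1 in R 4.3.3 (treatment only, moderated variances with an intensity trend), two-sided, with Benjamini-Hochberg adjustment over 11106 and 10693 probe sets. The code was tested on simulated data. The genes, lists and tests were chosen with earlier results of these data known. All 10 genes are named, and genes of the other lists where called. Adh5, Adh6a, Aldh1l2, Aldh1a3, Cyp2e1, Cat and Acss3 are named outside this rule, chosen after their values were seen. Planned promoters were those of called genes. Since 0 of the 10 were called, those with an unadjusted p below 0.05 and a window at the gene start are shown instead. P-values measure the spread between these arrays. Alternatives changed the filter, normalization, replicate block, variance model, array weights and the arrays included.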

Additional observations from a re-analysis of the deposited data

Results flagged for a closer look

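In 2 of 22 groups of arrays, 1 array stood farther from its group than Dixon's 95% limit, which chance alone passes in about 1 group in 20. For Akr7a2 on the first array type, PCN replicate 2 read 10.80, with a gap to the next PCN array that was 0.743 of the group's range, and the other PCN arrays lay between 11.11 and 11.22. Leaving it out changed the log2 fold change to -0.14 (adjusted p = 0.475, limma). For Adh1c on the second array type, corn oil replicate 1 read 10.59 and the other corn oil arrays 9.64 to 9.75, a gap of 0.876 of the range. Leaving it out turned the log2 fold change to 0.08 (adjusted p = 0.836, limma).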

How the results depend on the processing

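For the 10 genes, 0 calls were made in every alternative except 4. Scaling to a trimmed mean and centring on the 100 common probe sets each called 1 gene lower on the first array type (Adh1c). Array weights called 2 higher (Akr1a1 and Akr7a3). Centring on the common probe sets called 1 lower on the second array type (Adh1c, log2 fold change -0.43, adjusted p = 0.0487, limma), but moved the median of all tested probe sets there to -0.31, relative to which Adh1c lay at -0.12. That -0.12 is not matched for brightness, since the brightest 10%, which hold this probe set, had a median of 0.20 as deposited. Leaving out single arrays gave 0 calls throughout. Signs turned only where the change was near 0 or rested on 1 array. Aldh3a2 became -0.0028 with a common median, -0.039 with a trimmed mean, -0.0047 after cyclic loess, -0.076 after centring on common probe sets and -0.00084 with array weights, and ranged from -0.079 to 0.061 without single arrays. Akr1b7 became 0.030 with array weights and ranged from -0.093 to 0.034, and Adh1c on the second array type ranged from -0.258 to 0.0764. Same-numbered PCN and corn oil arrays had deviations correlating between -0.301 and 0.284 on the first array type and between 0.0202 and 0.201 on the second. Arrays with different numbers were not compared, so these values cannot show whether numbers pair PCN with corn oil animals. The main fit used no pairing. With replicate block, 0 of the 10 genes were called, Akr1d1 had an adjusted p of 0.0904 and Akr1c15 one of 0.0952. In the other pathway lists, 1 higher and 1 lower on the first array type ranged from 0 to 2 each over all alternatives. On the second, 1 higher and 0 lower ranged from 0 to 5 and, with the centring, up to 8. Calls over all probe sets of the first array type, 256 higher and 105 lower, ranged from 107 to 343 and 43 to 104 without single arrays, and reached 768 and 283 with array weights. On the second, 402 and 175 ranged from 69 to 907 and 15 to 572, with 163 and 40 under the replicate block and 868 and 607 with array weights. The split of higher and lower calls moved with scaling. On the first array type it was 247 and 181 after quantile normalization, 256 and 176 with a trimmed mean, 270 and 168 after cyclic loess and 214 and 252 after centring. On the second it was 518 and 72 with a common median, 397 and 478 with a trimmed mean and 210 and 6283 after centring. The platform annotation assigned no probe set to both one of the 10 genes and another gene, so that planned count was 0. Whether probe sets of the 10 genes share signal with close relatives was not tested.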
